A study of Mus musculus with 41 samples.

Results

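The 3′ part of conserved non-coding sequence 1 (CNS1) of the mouse Il4 locus is covered by CNS1 amplicons 2 and 3, called the second and the third amplicon here, and holds 9 CpGs. They were chosen by position, as the CpGs on the minus strand of chromosome 11 between 53440236 and 53440551 on mm9, and they are 9 of the 64 CpGs amplified at Il4. Numbered along the direction of Il4 transcription they are CpGs 9 to 17. The second amplicon carries CpGs 9 to 13 and the third amplicon CpGs 14 to 17, and the pair overlaps only in its primers. Together the amplicons span 339 bases. No gene of the GENCODE vM1 annotation overlaps them. The annotated Il4 gene starts 8065 bp downstream, and the annotated Il13 gene ends 4252 bp upstream, both on the minus strand.

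IL-4 is the signature cytokine of T helper 2 (Th2) cells, and CNS1 is a conserved element in the interval between Il13 and Il4 that opens as naïve CD4+ T cells become Th2 cells. Most CpGs of CNS1 carry 5-methylcytosine (5mC) before differentiation. TET dioxygenases oxidise it first to its hydroxymethyl form (5hmC) and further to the formyl and carboxyl forms (5fC, 5caC), which thymine DNA glycosylase (TDG) cuts out in base excision repair.

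Amplicons from naïve and Th2 cells were sequenced after 3 chemistries. After bisulfite (BS-seq) a C read stands for 5mC or 5hmC, and the level is 100 times C over C plus T. After pyridine borane (PB-seq) a T read stands for 5fC or 5caC, and the level is the percentage of T with C reads multiplied by 0.5. After TET-assisted pyridine borane treatment (TAPS) a T read stands for 5mC or 5hmC, and the level is the percentage of T. The samples described were 35 of the 41 of the series, 27 by BS-seq, 6 by PB-seq and 2 by TAPS, and they came from 31 libraries.

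All cells came from C57BL/6 mice, which were 8 to 16 weeks old. Naïve CD4+ T cells, sorted from spleen and lymph nodes as CD25- CD62L hi CD44 lo, were wild type. For the first Th2 cycle such cells were held for 2 days on anti-CD3 and anti-CD28 at 1 µg/ml with IL-4 at 1000 U/ml and anti-IFN-γ. They were then expanded in IL-2 at 20 U/ml, for 3 days by the sample labels and 4 by the methods. For the second cycle, cells differentiated for 6 days rested for 1 day without cytokine, met the same stimulus for 1 day and spent 4 days in IL-2. TET iTKO cells carried floxed Tet1, Tet2 and Tet3 with a Rosa26-YFP LSL reporter, and TDG iKO cells carried floxed Tdg with a Rosa26-H2B-EGFP/GPI-mCherry LSL reporter. Both had ERT2-Cre, and deletion was induced in the mice with tamoxifen, which control mice also received. Cells were sorted for the reporter of Cre activity. The labels give the controls of each line, called TET WT and TDG WT here, as wild type and do not list their alleles. A further pair of PB-seq samples came from wild-type and Tdg-KO Th2 cells of a CD4-Cre line, whose Cre is driven by the T-cell promoter of Cd4. In the Gata3 experiment, Rosa26-Cas9 cells received retroviral Gata3 sgRNA (labelled Gata3-KD) or a mock vector and were sorted for it.

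BS-seq had 3 libraries of naïve cells and 3 of wild-type Th2 cells after the first cycle. TET WT, TET iTKO, TDG WT and TDG iKO cells had 2 libraries each after either cycle. Repeated runs of one library were counted as 1 sample. All other groups had 1 library. The labels do not name separate animals, so that p-values measure the spread between these samples. Reads per CpG ranged from 132 to 10216 in the second amplicon and from 517 upward in the third amplicon across the BS-seq samples, so that all 9 CpGs passed the minimum of 100 reads. The deposited counts stop at the highest 16-bit number, which 6 samples reached at CpGs 14 to 17. The lowest depth was that of naïve replicate 2, in which CpG9 stood at 96.2% (91.5% to 98.4%) from 133 reads. Ranges in parentheses are 95% Wilson intervals and hold counting error alone, as these PCR reads had no molecular identifiers and may repeat a molecule. Outside CpGs, 99.6% to 99.8% of the cytosines of these amplicons were read as T after bisulfite.

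In naïve cells the 9 CpGs were highly methylated in each of the 3 libraries. Their mean 5mC + 5hmC level was 92.1%, 93.2% and 91.9% in replicates 1 to 3, or 92.4% ± 0.655 (SD, n = 3). Single CpGs ranged from 86.7% ± 5.14 (SD, n = 3) at CpG12 to 95.6% ± 0.657 (SD, n = 3) at CpG11. CpG12 was thus the lowest and also the most variable of the 9, with 82.8%, 92.5% and 84.9%. CpG13 followed it with 87.8% ± 0.308 (SD, n = 3). The other 7 CpGs had means between 90.3% and 95.6%, so that levels along the region differed little at the start of differentiation. CpGs 14 to 17 averaged 94.1% ± 0.85 (SD, n = 3) and CpGs 9 to 13 91.1% ± 1.14 (SD, n = 3).

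Wild-type Th2 cells after the first cycle were compared with naïve cells to see where methylation is lost first. The mean of the 9 CpGs was 75.2%, 75.1% and 87.4% in the 3 Th2 libraries, or 79.2% ± 7.06 (SD, n = 3). Replicate 3 had kept more methylation than the other pair, and all 3 lay below every naïve library. Each CpG was tested in a quasi-binomial regression with limma-moderated dispersion, and was called when its p, adjusted over all Il4 CpGs tested, was under 0.05. Of the 9 CpGs 7 were called lower in Th2 cells and 0 higher, beside 58.9% of the 56 CpGs tested across Il4. All 5 CpGs of the second amplicon were called, and the median difference of the 9 was -14.7 points against -9 points over all CpGs tested.

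CpG11 changed most. Its level was 95%, 96.3% and 95.6% in naïve cells and 65.7%, 67.9% and 85.2% in Th2 cells. The groups did not overlap, although Th2 replicate 3 lay far above the other Th2 libraries. CpG11 fell by 22.7 points (adjusted p = 2.15e-05, lower in 3 of 3 Th2 libraries). In the third amplicon, CpG14 fell by 9.11 points (adjusted p = 0.00231, lower in 3 of 3) and CpG15 fell by 6.4 points (adjusted p = 0.0417, lower in 3 of 3). CpGs 16 and 17 were not called. The limma alternative also called 7 of the 9, beside 34 of the 56, but with CpG16 in place of CpG15. CpG15 was not called either with only these groups in the fit, with or without the replicate block. The smallest difference was at CpG16, with 96.8%, 95.6% and 93.2% in naïve and 89.6%, 89.7% and 94.8% in Th2 cells, a difference of -3.79 points (adjusted p = 0.121). At CpG17 the values were 93.5%, 96.3% and 93.5% in naïve and 89.4%, 84.7% and 95% in Th2 cells, a difference of -4.74 points (adjusted p = 0.0759). At both CpGs, Th2 replicate 3 lay among the naïve libraries and the other pair below them. Without Th2 replicate 3 all 9 CpGs were called, beside 38 of the 56. Leaving out any other library of the comparison ended the call of CpG15 and left 6 CpGs called, beside 27 to 34 of all CpGs tested.

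After the second cycle levels were far lower. In the WT cells of both lines the mean of the 9 CpGs after the second cycle was 36.2% and 30.8% in the TET line and 30.3% and 23% in the TDG line, or 30.1% ± 5.41 (SD, n = 4) over all 4. All 9 CpGs were called lower than in naïve cells, beside 75% of the 56 CpGs tested. The comparison shares its naïve libraries with that of the first cycle. CpG11 again showed the largest difference, with 23.3% and 17.5% in TET WT and 20.7% and 13.4% in TDG WT cells. It fell by 76.9 points from naïve cells (adjusted p = 8.76e-12, lower in 4 of 4 libraries). The smallest difference was at CpG17, which stood at 56.7% and 55.1% in TET WT and 48.5% and 42% in TDG WT cells. It fell by 43.9 points (adjusted p = 3.93e-10, lower in 4 of 4). As a share of the naïve mean, CpG11 thus retained 19.6% and CpG17 53.6%, and the remaining CpGs lay in between.

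Between the cycles, in the WT cells of both lines, all 9 CpGs were called lower in the later one, beside 82.6% of the 46 CpGs tested. The 4 first-cycle libraries had means over the 9 CpGs of 58.6% and 58.6% in the TET line and 73.4% and 72.1% in the TDG line. The falls were more even along the region than those from naïve cells and ranged from -29.3 points at CpG12 to -38.7 points at CpG14. CpG14 went from 65.2% and 65.6% in TET WT and 81% and 81% in TDG WT cells to 39.3% and 37.3% in TET WT and 33.6% and 27.7% in TDG WT cells. No library of the second cycle overlapped the first (adjusted p = 1.85e-08 by the limma-moderated test, lower in 4 of 4). By the same test CpGs 16 and 17 fell by 35.3 points (adjusted p = 1.85e-08) and fell by 35.7 points (adjusted p = 1.85e-08) between the cycles, each lower in 4 of 4. The first-cycle comparison with naïve cells, in which both were not called, used other Th2 libraries. First-cycle WT cells of the lines were not tested against naïve cells.

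Within the region, BS-seq levels were higher toward the Il4 side, in steps, in Th2 cells that kept TET. In 18 of these 18 libraries CpGs 14 to 17 had a higher mean than CpGs 9 to 13, by 10.9 to 30.3 points with a median of 21.3. A further step followed inside the third amplicon. CpGs 16 and 17 exceeded CpGs 14 and 15 in 18 of 18 BS-seq libraries, by 3.04 to 20.9 points with a median of 11.1. CpG12 had the lowest level of the 9 in 15 of 18 libraries, and either CpG16 or CpG17 had the highest in all 18. These steps were mostly smaller in naïve cells, where the step between the amplicons was 2.06 to 4.83 points and that inside the third amplicon 0.413 to 3.33 points. TET iTKO cells had steps of 5.22 to 6.81 points between the amplicons. Inside the third amplicon their steps were -2.03 to 2.73 points. CpGs of one library share its cells and amplification, and the amplicons differ in primers and depth, whose part in the step between them was not tested. The step between CpGs 15 and 16 lies within a single amplicon.

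Set out by CpG, the WT cells of the second cycle had 19.5% ± 5.8 (SD, n = 4) at CpG9, 20% ± 4.78 (SD, n = 4) at CpG10 and 18.7% ± 6.07 (SD, n = 4) at CpG12. CpG11 had 18.7% ± 4.27 (SD, n = 4). CpG13 had 24.7% ± 7.46 (SD, n = 4) and lay above each of CpGs 9 to 12 in 4 of 4 libraries. CpGs 14 and 15 stood at 34.5% ± 5.08 (SD, n = 4) and 33.2% ± 5.66 (SD, n = 4), with CpG14 the higher in 4 of 4. CpGs 16 and 17 were highest, at 50.8% ± 6.28 (SD, n = 4) and 50.6% ± 6.72 (SD, n = 4).

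The WT cells of both lines were not alike. After the first cycle the TET WT libraries had less methylation than the TDG WT libraries at all 9 CpGs, with means of 58.6% ± 0.0209 (SD, n = 2) and 72.7% ± 0.952 (SD, n = 2), and the pairs of libraries did not overlap at any of the 9. They did not overlap at 37 of the 46 CpGs tested across Il4. By the limma-moderated test 5 CpGs were called lower in TET WT cells, beside 17.4% of the 46 tested. They were CpGs 10, 11, 13, 14 and 15. The largest difference was at CpG13, with 52.9% and 54.3% in TET WT and 71.1% and 71.1% in TDG WT cells, and -17.5 points between the means (adjusted p = 0.0463, lower in 2 of 2). The smallest was at CpG17, with 85% and 82.3% in TET WT and 90% and 88.1% in TDG WT cells, or -5.46 points (adjusted p = 0.214). CpGs 9, 12 and 16 were not called either, with differences of -15.6, -15.5 and -8.45 points. The calls depended on the test and on each library. The limma alternative on log ratios called 0 of the 9, and so did the fit without any 1 of TET WT replicates 1 and 2 and TDG WT replicates 1 and 2.

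The change between the cycles was then compared between these WT cells. The loss in the TET line was the smaller one at all 9 CpGs, and at 42 of 46 across Il4, by a median of 20.8 points, against 10.4 points over all CpGs tested. It was called at 2 of the 9, CpGs 14 and 15, beside 4.35% of the 46 CpGs tested, and 9 of the 9 had an unadjusted p under 0.05, beside 18 of all tested. At CpG15 the change was from 61.8% and 64.2% to 37.7% and 36.7% in the TET line and from 79.8% and 78.5% to 33% and 25.2% in the TDG line. The difference of 24.2 points was the largest of the 9 (limma-moderated adjusted p = 0.0338). CpG14 differed by 23.2 points (adjusted p = 0.0338) and CpG17 least, by 16.1 points (adjusted p = 0.0797). These are differences of group means, as the labels name no animals that would link the libraries of the cycles. The limma alternative called 0 of the 9, and the fit of these groups with a replicate block 0. Leaving out TDG WT replicate 1 or 2 of the first cycle, TET WT replicate 1 or 2 of the first cycle, TDG WT replicate 2 of the second or TET WT replicate 1 of the second gave 0 calls. Without TDG WT replicate 1 of the second cycle all 9 were called, beside 17 of all tested, and without TET WT replicate 2 of the second 7, beside 15.

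In TET iTKO cells the region stayed methylated. After the first cycle the mean of the 9 CpGs was 91.7% and 91.3% in TET iTKO cells and 58.6% and 58.6% in TET WT cells. All 9 CpGs were called higher in TET iTKO cells, beside 60% of the 60 CpGs tested. CpG9 showed the largest difference, with 43.3% and 47.4% in WT and 94.5% and 90.8% in TET iTKO cells. It was higher by 47.3 points (adjusted p = 7.93e-07 by the limma-moderated test, in 2 of 2 libraries). The smallest difference was at CpG17, with 85% and 82.3% in WT and 93.5% and 95.6% in TET iTKO cells. It amounted to 11 points (adjusted p = 0.00378, higher in 2 of 2). With a replicate block in the fit of these groups, 7 of the 9 were called, beside 20 of the 60, and CpGs 16 and 17 were not.

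After the second cycle the mean was 89.4% and 91% in TET iTKO cells. The WT libraries of that cycle lay far below it, as given above, and all 9 CpGs were called higher in TET iTKO cells, beside 70% of the 60 CpGs tested. CpG11 differed most, with 23.3% and 17.5% in WT and 88.8% and 90.4% in TET iTKO cells, or 69.2 points (adjusted p = 3.01e-09, higher in 2 of 2). CpG16 differed least, with 55.9% and 55.2% in WT and 94% and 94.2% in TET iTKO cells, or 38.6 points (adjusted p = 8.27e-08, higher in 2 of 2). The median difference of the 9 was 37.7 points in the first cycle and 59.3 in the later one, and this difference was not tested. CpG13 was the most variable CpG in TET iTKO cells of the second cycle, at 82% and 91.6%.

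How far TET iTKO cells had moved from the naïve state was asked by comparing them with naïve cells after the second cycle. None of the 9 CpGs was called by the limma-moderated test, while 22.2% of the 54 CpGs tested across Il4 were. Of the 9, 1 had an unadjusted p under 0.05 and the limma alternative called 1, CpG11 in each case, beside 19 and 15 of all CpGs tested. CpG11 had the largest difference, -5.98 points (adjusted p = 0.126), and both TET iTKO libraries lay below all 3 naïve libraries there, as they did at CpGs 9 and 10. With only the groups compared in the fit CpGs 9 and 11 were called, beside 26 of all CpGs tested. CpG17 had the smallest difference, 0.274 points (adjusted p = 0.911). Relative to the naïve mean, the TET iTKO cells retained 93.7% at CpG11 and between 94.5% and 101% at the other 8 CpGs. From the first to the second cycle of TET iTKO cells, 0 of the 9 were called, beside 11.7% of the 60 tested. At an unadjusted p under 0.05 there were 0, beside 12 of all CpGs tested, and the limma alternative called 0, beside 9. Differences ran from -4.57 points at CpG13 to 2.07 at CpG12, and CpG11 had the smallest, -0.111 points.

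Deletion of Tdg was followed by no called difference in BS-seq levels. After the first cycle the mean was 73.4% and 72.1% in TDG WT and 66.1% and 70.8% in TDG iKO cells. No CpG was called, here or among the 46 tested across Il4 (0%), with 0 of the 9 at an unadjusted p under 0.05 and 0 called by the limma alternative. All 9 differences were negative, and at 5 CpGs the libraries did not overlap. Across Il4 33 of 46 CpGs were negative too and 14 of 46 did not overlap, with a median difference of -2.06 points. CpG13 had the largest, with 71.1% and 71.1% in WT and 61.8% and 66.9% in TDG iKO cells, or -6.77 points (adjusted p = 0.993, lower in 2 of 2). CpG15 had the smallest, -2.23 points.

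After the second cycle the mean was 30.3% and 23% in TDG WT and 23.2% and 19.2% in TDG iKO cells, and the groups overlapped when unpaired. Again 0 of the 9 CpGs, and 0% of the 63 CpGs tested, were called. The limma alternative called 0 of the 9 and 0 had an unadjusted p under 0.05. The differences of the 9 were all negative here too, beside 21 of 63 across Il4, and were largest at CpG16, with 50.1% and 42.3% in WT and 38.5% and 35.4% in TDG iKO cells, or -9.21 points (limma-moderated adjusted p = 0.866, lower in 2 of 2). CpG10 had the smallest, -2.97 points. Deviations of same-numbered TDG WT and TDG iKO libraries from their group means had a correlation of 0.572 after the first cycle over 46 CpGs. After the second it was 0.347 over 63. With 2 libraries a group each value rests on 1 contrast between replicates, over CpGs that share their libraries, and does not show a pairing. For TET WT and TET iTKO libraries the values were -0.261 and -0.0342 over 60 CpGs. TDG iKO was lower than the same-numbered TDG WT library in both pairs at 6 of the 9 CpGs after the first cycle, beside 19 of 46 across Il4, and at 8 in the later one, beside 13 of 63. With the replicate number as a block in the fit of these groups, 0 of the 9 were called in either cycle. The absence of calls at differences of this size does not show that levels were equal.

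TDG iKO cells lost methylation between the cycles at every one of the 9 CpGs. All 9 were called lower in the later cycle, beside 80.4% of the 46 CpGs tested. CpG14 changed most, from 72.8% and 81.8% to 21.3% and 23.9%. It fell by 54.7 points (adjusted p = 6.51e-08 by the limma-moderated test, lower in 2 of 2). CpG12 changed least, from 51.3% and 55.7% to 17.6% and 8.42%, a difference of -40.5 points (adjusted p = 3.77e-06, lower in 2 of 2). In these cells CpG12 of replicate 2 reached the lowest BS-seq level of any library at the 9 CpGs.

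The effects of the deletions were also compared with each other after the second cycle, as the difference between TET iTKO and TET WT cells minus that between TDG iKO and TDG WT cells. The TET effect was the larger at all 9 CpGs, each of them called, beside 63.3% of the 60 CpGs tested. The comparison shares its libraries with both comparisons above. At CpG11 the effects were 69.2 and -3.3 points, which differed by 72.5 points, the most of the 9 (adjusted p = 1.31e-06 with limma moderation, higher in 2 of 2 TET iTKO libraries). At CpG17 they were 38.8 and -8.25 points, which differed by 47.1 points, the least (adjusted p = 1.31e-06, higher in 2 of 2).

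PB-seq of first-cycle Th2 cells measured 5fC + 5caC, the bases that TDG removes, at the same CpGs. With ERT2-Cre the mean over the 9 CpGs was 0.447% in TDG WT and 2.37% in TDG iKO cells, and with CD4-Cre it was 0.15% and 4.6%. Each group had 1 library, so a CpG was called where levels differed by at least 1 point and the intervals lay apart. By this rule 6 of the 9 CpGs were called higher in TDG iKO cells with ERT2-Cre, beside 36.2% of the 47 CpGs with enough reads, and 8 with CD4-Cre, beside 48.9% of 47. All 5 CpGs of the second amplicon and CpG14 were called in each line. The median difference of the 9 was 1.66 points with ERT2-Cre and 4.7 points with CD4-Cre, against 0.426 and 0.961 points over all CpGs compared. Cytosines outside CpGs, computed in the same way, had 0.216% to 0.286% in the 4 libraries.

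On the minus strand, CpG11 had the highest measured 5fC + 5caC level in each TDG-deleted library, which did not hold on the plus strand. With ERT2-Cre it had 4.73% (3.98% to 5.62%) in TDG iKO and 0.888% (0.54% to 1.46%) in WT cells. With CD4-Cre it had 9.18% (6.52% to 12.8%) in Tdg-KO cells, while 0 of 810 reads in WT cells were T, with an upper limit of 0.94%. CpGs 12 and 13 also had 0 of 810 T reads in that WT library. CpG9 came next with ERT2-Cre, at 4.38% (3.65% to 5.24%) against 0.42% (0.204% to 0.863%). CpG14 was next with CD4-Cre, at 5.67% (5.18% to 6.21%) against 0.152% (0.0975% to 0.238%). The intervals of CpGs 9 and 11 overlapped with ERT2-Cre. With CD4-Cre the interval of CpG11 lay apart from those of CpGs 12 and 14 to 17 but overlapped those of CpGs 9, 10 and 13, so that it was not resolved as the highest in either line.

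CpG17 had the lowest minus-strand 5fC + 5caC level of the 9 in both deleted lines and was called in neither. It had 0.717% (0.582% to 0.883%) in TDG iKO against 0.325% (0.24% to 0.44%) in WT cells with ERT2-Cre, and 0.902% (0.71% to 1.15%) against 0.304% (0.222% to 0.417%) with CD4-Cre. The intervals lay apart in both lines, with differences of 0.392 and 0.598 points, under the 1 point asked for. On the plus strand CpG16 was the lowest instead, and CpG17 had 3.89% (3.47% to 4.34%) in Tdg-KO against 0.229% (0.159% to 0.328%) in WT cells with CD4-Cre, more than 1 point apart. With ERT2-Cre, CpG17 had 1.12% (0.949% to 1.32%) against 0.734% (0.599% to 0.898%) on that strand, under 1 point apart. There CpG16 was lower in Tdg-KO than in WT cells with CD4-Cre, at 0.868% (0.681% to 1.11%) against 1.67% (1.47% to 1.91%). On the minus strand with ERT2-Cre, CpGs 15 and 16 also stayed under 1 point, with differences of 0.902 and 0.744 points. With CD4-Cre both were called, with 3.19% (2.82% to 3.61%) against 0.184% (0.123% to 0.276%) at CpG15 and 3.59% (3.19% to 4.03%) against 0.216% (0.149% to 0.314%) at CpG16. The mean over CpGs 9 to 13 exceeded that over CpGs 14 to 17 in both deleted libraries, 2.98% against 1.61% with ERT2-Cre and 5.61% against 3.34% with CD4-Cre. This is the reverse of the order of their BS-seq levels. In the CD4-Cre libraries CpGs 9 to 13 rested on 591 to 810 reads, so that their intervals are wide. Without halving the C reads, 3 CpGs were past 1 point with ERT2-Cre, CpGs 9, 11 and 14, beside 10 of the 47 compared. ERT2-Cre and CD4-Cre lines were not compared by a test, and their mice and time of deletion differ.

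TAPS read 5mC + 5hmC by another chemistry in 1 library of naïve and 1 of Th2 cells, both wild type. The mean over the 9 CpGs was 93.4% in naïve and 49.8% in Th2 cells. All 9 CpGs were lower in Th2 cells by at least 10 points with intervals apart, beside 80.9% of the 47 CpGs compared. CpG9 had the largest difference, with 97.3% (96.3% to 98%) in naïve and 38.9% (37.3% to 40.5%) in Th2 cells. CpG15 had the smallest, with 88.6% (88% to 89.1%) and 63.2% (62.4% to 63.9%). As in BS-seq, CpGs 14 to 17 had a higher mean than CpGs 9 to 13 in Th2 cells, 62.1% against 40.1%. The step from CpGs 14 and 15 to CpGs 16 and 17 had the opposite sign on the minus strand, at -2.25 points. Unlike in BS-seq, CpG17 did not stand above CpGs 14 and 15 on the minus strand. It had 55.7% (54.9% to 56.5%), and CpGs 14 and 15 had 63.2% (62.4% to 64%) and 63.2% (62.4% to 63.9%). CpG16 was the highest of the 9, at 66.2% (65.4% to 66.9%). In naïve cells the TAPS mean lay above the BS-seq means, whereas the Th2 TAPS mean lay below each of the 3 Th2 BS-seq means given above. On the plus strand the naïve TAPS mean was 87.6%, below the BS-seq means, and CpG16 had 60.8% in naïve and 46.3% in Th2 cells. CpG17 in Th2 cells had 63.2% (62.4% to 64%) on that strand, beside 63.8% (63% to 64.6%) at CpG14 and 61.7% (60.9% to 62.5%) at CpG15, so that its lower level was seen on the minus strand alone. C reads were not multiplied by 0.5 in TAPS, as they were in PB-seq. That step would raise the TAPS means, more so in Th2 than in naïve cells. The size of the gap to BS-seq in Th2 cells thus depends on this choice. With C reads multiplied by 0.5, all 9 CpGs were still called lower in Th2 cells, beside 34 of all CpGs compared. TAPS and BS-seq were also run on different libraries, and the differences between their levels were not tested. Outside CpGs, 0.294% and 0.301% of cytosines were read as T.

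GATA3 is the lineage-defining transcription factor of Th2 cells, and the last comparison set cells with either of 2 Gata3 sgRNAs beside mock cells after the first cycle. The mean over the 9 CpGs was 62% in mock cells, 71.5% with sgGATA3-1 and 71.8% with sgGATA3-2. First-cycle WT libraries outside this experiment ran from 58.6% to 87.4% in BS-seq, so that these values lay within their range. The differences from mock cells were not tested against that spread. With 1 library a group, a difference of 10 points with intervals apart was asked for. It was met at 5 of the 9 CpGs with sgGATA3-1, beside 45.3% of the 64 CpGs compared, and at 5 with sgGATA3-2, beside 45.3%. These were CpGs 9 to 13 in both cases, all higher with the sgRNA, and the comparisons share the mock library.

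CpG13 had the largest difference, with 54.2% (53.1% to 55.3%) in mock cells, 70.3% (69.2% to 71.3%) with sgGATA3-1 and 68.4% (67.4% to 69.4%) with sgGATA3-2. In the third amplicon, CpG14 was next to the limit, with differences of 8.36 and 8.47 points. CpG17 had the smallest difference, with 85.7% (85.5% to 86%) in mock cells, 86.6% (86.3% to 86.9%) with sgGATA3-1 and 87.9% (87.6% to 88.1%) with sgGATA3-2. Mock cells had the largest step between the amplicons of any BS-seq library, 30.3 points, and it was 21 and 22.1 points with the sgRNAs. CpGs 14 to 17 were within 10 points of mock cells with both sgRNAs, and the split between the amplicons depends on this limit. At a minimum of 5 points 7 of the 9 CpGs met the rule with each sgRNA, all but CpGs 16 and 17. Of the 64 CpGs compared 41 did so with sgGATA3-1 and 38 with sgGATA3-2. At a minimum of 20 points 0 of the 9 CpGs met the rule with either sgRNA, beside 9 of the 64 CpGs compared with sgGATA3-1 and 7 with sgGATA3-2.

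Set beside these 9 CpGs, the 8 of the first CNS1 amplicon averaged 93% ± 1.17 (SD, n = 3) in naïve, 78.7% ± 6.31 (SD, n = 3) in first-cycle Th2 and 25.5% ± 6.04 (SD, n = 4) in second-cycle WT cells. In the WT cells of the second cycle the third amplicon stood above them, at 42.3% ± 5.92 (SD, n = 4), and the second below, at 20.3% ± 5.55 (SD, n = 4). In TDG iKO cells of the second cycle the first amplicon had 23.8% ± 0.17 (SD, n = 2) and differed from TDG WT by 0.494 points on average, with 2 of 8 CpGs lower, whereas CpGs 9 to 17 differed by -5.47 points with 9 of 9 lower. After the first cycle this contrast was absent, with -3.77 points and 7 of 8 CpGs lower in the first amplicon beside -4.27 points and 9 of 9. With the Gata3 sgRNAs 6 of 8 CpGs met the rule for each sgRNA. The difference between the amplicons was not tested. The 5 CpGs of exon 3, amplified from the same DNA, kept 95.9% ± 0.348 (SD, n = 3) in naïve cells and 95.7% ± 0.262 (SD, n = 4) in WT cells of the second cycle. Of these, 0 of 5 were called in that comparison by the limma-moderated test, with 0 at an unadjusted p under 0.05 and 1 by the limma alternative. Their PB-seq mean in Tdg-deleted cells was 0.349% with ERT2-Cre and 0.375% with CD4-Cre, and 0 of 5 met the rule in either line.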

How the data were processed

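The members and the lists set beside them were chosen with earlier results of these data known. The authors mapped paired-end reads to mm9 with BSMAP (version not stated), with the options -q 30 and -w 2, and with up to 5 mismatches (-v) in BS-seq but 0 in PB-seq. Parameters for TAPS are not stated. They deposited counts of reads with C and with C or T at each cytosine, without normalization, and the fraction of C the authors computed from them. Only the counts were used, and these stop at the highest 16-bit number. Calls and levels rest on the minus strand, except PB-seq and TAPS levels named as those of the plus strand. Amplicons were placed on mm9 by the published primers. Runs of a single library, recognised by its name, were summed, which applied to first-cycle TDG WT and TDG iKO cells in BS-seq and, with ERT2-Cre, in PB-seq. Replicate numbers, used for blocks, came from the labels.

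A quasi-binomial regression was fitted to the counts at each Il4 CpG over 22 BS-seq libraries of 10 groups. Williams weights allowed for one between-library variance (0.00943), and the dispersion of each CpG, at least 1, was moderated by limma 3.58.1 (squeezeVar). F-tests were two-sided, with Benjamini-Hochberg adjustment over all Il4 CpGs that had 100 reads in every library compared. The test was tested on simulated data, in which CpGs varied independently and base levels lay below those of naïve cells. The simulation thus does not cover shifts of a whole library or levels near full methylation. Errors of means are SDs between libraries. Means over CpGs are unweighted and were not tested. In each comparison the text names the CpGs with the largest and the smallest difference and those called against the majority. Other CpGs were named after their values were seen. Comparisons with 1 library a group used 95% Wilson intervals, with those of PB-seq mapped through the halving of C reads.

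Alternatives were minima of 20 and 500 reads, a fit of the compared groups alone, the same with a replicate block, limma on the log2 ratio of C + 1 to T + 1, a further minimum of 10 points, runs as separate replicates, each library left out, read-weighted means, other minimum differences, C reads halved or not, and each PB-seq run alone. BMDM samples lie outside these CpGs and were not used. Python 3.11.15, numpy 2.4.6, pandas 2.3.3, scipy 1.17.1 and R 4.3.3 were used.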

Additional observations from a re-analysis of the deposited data

Results flagged for a closer look

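The change between cycles in WT cells differed between the TET and TDG lines at CpG14, by 23.2 points (adjusted p = 0.0338 by the limma-moderated test of the difference). At CpG15 it differed by 24.2 points (adjusted p = 0.0338 by the same test). By group means, the TET line had the smaller loss at these CpGs. Both were picked out because the difference between the lines itself passed the test. The calls were lost on leaving out most single libraries, as given in the results, and with a replicate block in the fit of these groups. The lines already differed after the first cycle.

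The PB-seq samples also hold reads of the plus strand at the 9 CpGs, which the calls above did not use, and a signal above the WT libraries drew attention to them. The mean 5fC + 5caC level on that strand was 1.96% in TDG iKO and 0.342% in WT cells with ERT2-Cre. With CD4-Cre it was 6.43% in Tdg-KO and 0.509% in WT cells. Single CpGs on that strand ranged from 0.742% at CpG16 to 3.42% at CpG9 in TDG iKO cells with ERT2-Cre. In Tdg-KO cells with CD4-Cre they ranged from 0.868% at CpG16 to 11.4% at CpG12. With CD4-Cre, CpG16 was the only CpG of the 9 below its WT level, which was 1.67% (1.47% to 1.91%), with intervals apart. The intervals of the highest overlapped those of CpGs 12, 13 and 15 with ERT2-Cre and of CpGs 9, 11 and 13 with CD4-Cre. The order of CpGs thus differed from that on the minus strand, where CpG17 was lowest and CpG11 highest in both lines. CpG11 had 1.95% (1.45% to 2.63%) with ERT2-Cre and 9.45% (6.96% to 12.7%) with CD4-Cre on the plus strand, and CpG17 had 1.12% (0.949% to 1.32%) and 3.89% (3.47% to 4.34%). Each group had 1 library and the difference between strands was not tested.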

How the results depend on the processing

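Under the alternatives, 168 counts and means stayed within 1.5 times the count or 1 SD of the mean reported. Of the others, 23 were weaker, 8 stronger and 11 moved. A minimum of 500 reads removed CpGs 9 to 13 from comparisons with shallow libraries. Of the 4 CpGs left, 1 was called between Th2 and naïve cells and 4 for the WT second cycle against naïve cells. Over all CpGs tested these counts were 6 and 13. The same minimum left 4 called for the WT second against the first cycle, 4 for TET iTKO against WT and 4 for the TET against the TDG effect, both in the second cycle, and 4 for TDG iKO cells between the cycles. In that order, 19, 28, 19 and 18 of all CpGs tested were called. For second-cycle TET iTKO against naïve cells, limma called 1 CpG and the fit of only the groups compared 2, beside 15 and 26. For the cycle change between the WT lines, limma called 0, only the groups compared 4 and runs as separate replicates 6. Over all CpGs tested these called 0, 6 and 11. For TET WT against TDG WT after the first cycle these were 0, 9 and 8, beside 0, 28 and 15 of all CpGs tested. The cause was not tested.

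Leaving out each library gave 0 to 9 calls for the cycle change, 0 to 0 for TET WT against TDG WT, and 6 to 9 for Th2 against naïve cells. The library left alone in an arm is assumed to vary like the other groups.

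The replicate block, taken from label numbers that name no animals, was fitted with only the groups compared, so that its counts carry both choices. It gave 6 CpGs for Th2 against naïve cells (6 with only the groups compared and no block), 9 for the WT second cycle against naïve cells and 9 between WT cycles. Over all CpGs tested these counts were 27 (27 without the block), 42 and 38. TET iTKO against WT gave 7 after the first cycle, losing CpGs 16 and 17, and 9 after the second, beside 20 and 38. A block with crossed numbers, chosen after seeing the data, gave 9 in the first cycle, beside 44. The replicate block gave 9 for the TET against the TDG effect, 9 for TDG iKO between cycles, 6 for TET WT against TDG WT (9 without the block), 0 for the cycle change (4 without it), and 0 for both TDG and both remaining TET iTKO comparisons. Over all CpGs tested the first 4 of these counts were 39, 38, 14 (28 without the block) and 0 (6 without it). They were 0 for both TDG comparisons, 5 for TET iTKO against naïve cells and 0 for TET iTKO between cycles.

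Read-weighted means were higher, because the deeper amplicon of CpGs 14 to 17 then counts for more. They were 93.4% in naïve cells, 76.8% and 40.3% in all WT cells of the lines after the first and second cycle, 70.8% and 44.2% in TET WT, 93.9% and 93.1% in TET iTKO, 82.7% and 36.5% in TDG WT, and 79.5% and 29.2% in TDG iKO cells. At 20 points the Gata3 comparisons had 0 CpGs with sgGATA3-1 and 0 with sgGATA3-2. In PB-seq with ERT2-Cre, 3 CpGs were called with C reads not halved and 3 at a difference of 2 points, each beside 10 of all CpGs compared.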
